A study of Mus musculus with 14 samples.

Results

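The comparison set B lineage cells that lack Pax5 against wild type cells of the same origin. It used 6 of the 14 arrays of the series, 3 titled Pax5KO and 3 titled Wt, and 18193 genes that were read by probe sets with a single gene symbol. Donor cells came from the fetal liver of day 15 embryos, either Pax5KO or wild type. They engrafted in the marrow of sublethally irradiated C57Bl6 recipients, adults 8 to 12 weeks old. After 4 weeks B220+ marrow cells positive for a reporter of λ5, a chain of the surrogate light chain, were sorted. In both groups the sort therefore selected cells in which the λ5 reporter was active. The donors of both groups carried that reporter. Each array of a group is titled a separate biological replicate, though the labels do not say whether 1 recipient or a pool gave each array. The other 8 arrays came from C57Bl6 adults of the same age without a transplant, 2 each for PreB, ProB, Ly6D+ CLP and Ly6D- CLP cells, and were used to estimate the spread and as a reference for levels. CLP stands for common lymphoid progenitor.

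Pax5 is a transcription factor of the paired box family. It is switched on as lymphoid progenitors become B cells, where it activates genes of the B cell receptor and its signalling and represses genes of other blood lineages. Cells without it stop at an early, pro-B-like stage and keep the capacity to form other lineages under suitable conditions. Which stretch of Pax5 the knockout lacks is not stated, so the array level of Pax5 does not check the genotype. Its brighter probe set read 7.95, 7.92 and 7.57 on the Pax5KO arrays and 6.76, 6.18 and 6.60 on the WT arrays (difference 1.30, SE 0.60, limma adjusted p = 0.367). The dimmer one read 2.32, 2.32 and 2.34 on the Pax5KO arrays, at the floor of the scale, and 3.42, 3.38 and 2.43 on the WT arrays (difference -0.75, SE 0.44, limma adjusted p = 0.669 over single probe sets).

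All values are log2 signals on a common scale with a floor at 2.32, so a difference of 1 is a doubling and a value at the floor means that a transcript was too dim to measure. Groups with no array more than 0.5 above that value were taken to be at the floor. Differences from such a group are lower bounds and are written as at least. The number of arrays limits the precision. On average 47.4% ± 0.17 (SD, n = 3) of the genes of a Pax5KO array and 48.0% ± 0.30 (SD, n = 3) of those of a WT array were that dim (exact two-sided permutation p = 0.1, the smallest that 3 arrays against 3 allow).

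Some array measures moved with the groups. Xist, transcribed in cells with an inactive X chromosome, read 12.66 to 13.16 on the 3 Pax5KO arrays and 12.68 on WT array 3, against 2.33 and 2.58 on WT arrays 1 and 2. The Y-linked genes Eif2s3y (10.70 and 10.30) and Kdm5d (7.59 and 8.01) were high on WT arrays 1 and 2 alone among the 6. The actin probe sets differed between the 3′ and 5′ end by 3.14 to 4.57 on the Pax5KO arrays and by 2.52 to 3.47 on the WT arrays (exact two-sided permutation p = 0.3), and array 3 of each group had the highest value. Averaged over 7 B lineage markers, the arrays read 10.87 to 11.21 in Pax5KO and 11.48 to 11.75 in WT cells. Of these markers Cd79a and Cd79b were called lower in Pax5KO cells (limma adjusted p = 0.00233 and 0.0483), and Cd79a read 5.36 to 5.48 there. Vpreb1 lay between 11.90 and 13.21 on all 6 arrays. The defining T cell markers Cd3e, Cd3d and Cd3g, the NK genes Klrk1 and Prf1, the globin Hba-a1 and the platelet gene Ppbp were at the floor on all 6. Called higher in Pax5KO cells were Lyz2, 1 of 6 monocyte or macrophage markers, and Bst2, 1 of 5 plasmacytoid dendritic cell markers (limma adjusted p = 0.0179 and 0.0165). No other marker of either set was called. Cd14 and Itgam of the first set and Siglech of the second were at the floor in both groups. Of 5 plasma cell markers Jchain rose and Sdc1 fell (limma adjusted p = 0.0253 and 0.0107). Jchain read 11.78 to 12.54 in Pax5KO and 2.93 to 6.41 in WT cells. Markers of mast cells or basophils read lower in Pax5KO cells: Ms4a2 fell by 2.82 (SE 0.36, limma adjusted p = 0.0021) and Cpa3, at the floor in Pax5KO cells, fell by 2.12 or more (SE 0.31, limma adjusted p = 0.00462). In the fit of the 6 engrafted arrays their adjusted p was 0.0726 and 0.0542. Averaged over 4 such markers, the arrays read 3.24 to 3.89 in Pax5KO and 4.58 to 6.02 in WT cells, and 7 neutrophil markers averaged 3.52 to 3.94 and 3.93 to 5.64. Adjusted over single probe sets, Cd79b was not called (limma adjusted p = 0.065). For Lyz2, Bst2, Jchain and Sdc1 no alternative fit is given here, so how firm these calls are is not shown. The part of these measures in the results was not tested, apart from the alternative fits given beside them.

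Of the 18193 genes, 1080 (5.94%) were called at a limma adjusted p under 0.05, 663 (3.64%) higher and 417 (2.29%) lower in Pax5KO cells. Neither group was above the floor for 7703 genes, and among the 10490 genes above the floor in at least 1 group, 10.3% were called. The changes were large. The median size was 2.14 among the rises and 2.23 among the falls, and 27 genes rose and 40 fell by 5 or more. All 3 Pax5KO arrays lay above all 3 WT arrays for 11.9% of all genes and below them for 7.65%, and no called gene had overlapping arrays. To separate firm calls from marginal ones, the fit was repeated under 18 alternatives, among them leaving out each of the 6 arrays in turn. A call is said here to hold when the gene was called in the same direction in each alternative that tested it. Calls held for 326 genes (1.79%), 182 higher and 144 lower (0.792%). The whole count was 676 without Pax5KO array 1, 718 without WT array 1 and 697 when the 6 engrafted arrays were fitted alone. With a term for high Xist, which leaves the Pax5KO mean against WT array 3, it was 866, with 339 higher and 527 lower. Genes named below have calls that held unless stated otherwise.

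**Figure D1:**
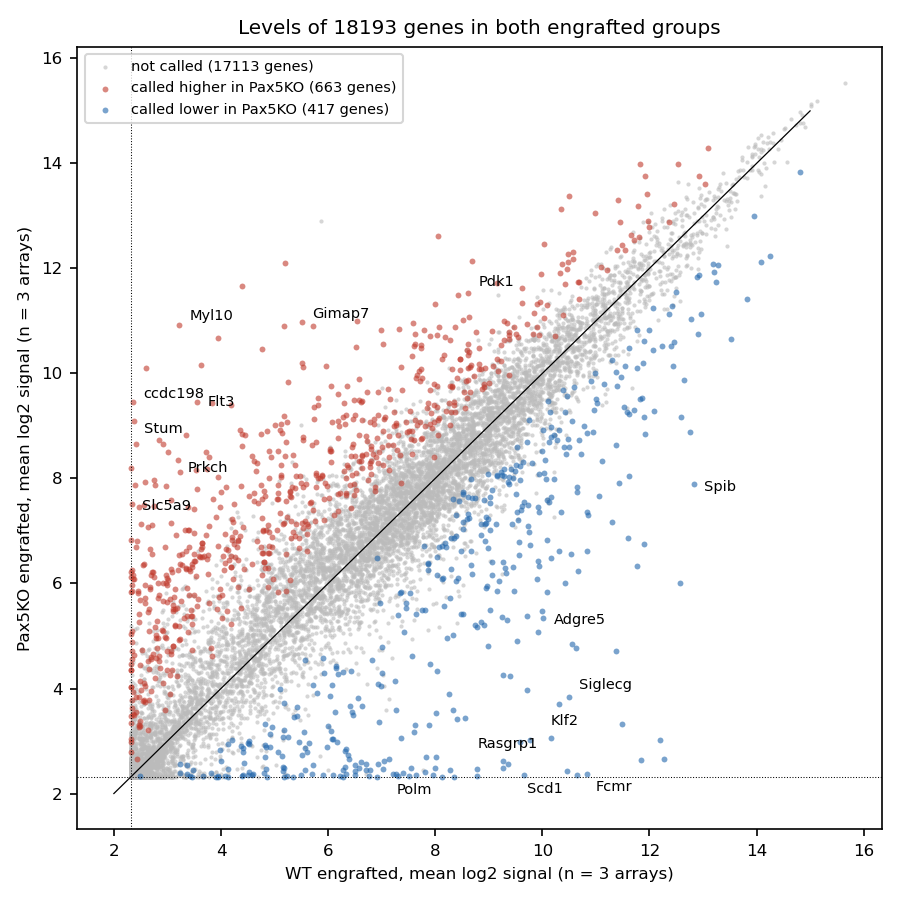
Mean log2 signal of each of 18193 genes in WT engrafted cells (x axis) and Pax5KO engrafted cells (y axis), n = 3 arrays each; red points were called higher in Pax5KO (663), blue points lower (417), and dotted lines mark the floor at 2.32. Blue points along the lower dotted line are genes at the floor in Pax5KO cells, such as Polm (7.52 in WT), and red points along the left dotted line are genes at the floor in WT cells, such as ccdc198 (9.45 in Pax5KO).

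A first class of changes ran between the floor and a clear signal. In Pax5KO cells 82 of the genes that fell were at the floor, and in WT cells 77 of the genes that rose. Otub2, a deubiquitinase, read 10.55, 10.51 and 10.31 on the WT arrays and 2.43, 2.43 and 2.44 on the Pax5KO arrays. Mgst1, a membrane-bound glutathione transferase, read 10.20, 9.48 and 9.31 in WT cells and 2.32 to 2.42 in Pax5KO cells, although it was well above the floor in all 4 groups without a transplant, the Ly6D- CLP included (5.60). Tmprss3, a membrane serine protease, showed the same arrangement, with 9.03 to 9.64 in WT cells, 2.32 to 2.57 in Pax5KO cells, and 6.34 to 7.18 as group means in the cells without a transplant. Both transcripts thus had their lowest mean in Pax5KO cells among all 6 groups. In sorted bulk samples, fewer cells with a transcript and less of it per cell cannot be told apart. Reln, which encodes the secreted glycoprotein reelin, read 8.25, 8.72 and 8.09 against 2.32 on each Pax5KO array. Enpep, the aminopeptidase known as the pre-B marker BP-1, read 8.01, 7.83 and 8.14 against 2.48 on each Pax5KO array, a fall of at least 5.51 (SE 0.09, limma adjusted p = 1.36e-08).

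The levels of these genes in the cells without a transplant differed between both directions. Of the 82 genes at the floor in Pax5KO cells, 77 were above the floor in PreB, 43 in ProB, 10 in Ly6D+ CLP and 23 in Ly6D- CLP cells. Among them, 54 were above it in a B stage and in neither CLP group, and 26 in PreB cells alone. The genes at the floor in WT cells ran the other way: of 77, 48 were above the floor in Ly6D+ CLP, 41 in Ly6D- CLP, 29 in ProB and 14 in PreB cells, and 22 were above it in a CLP group and in neither B stage. Mn1, a transcriptional cofactor of early blood progenitors, is of that kind, at 10.31 in Ly6D- CLP, 8.39 in Ly6D+ CLP, 5.83 in Pax5KO and 2.32 in WT engrafted cells. Kcng1, a potassium channel subunit, read 8.90, 8.46 and 8.62 in Pax5KO cells and 2.32 to 2.61 in WT cells, and averaged 9.91 in Ly6D+ CLP. Stum, a membrane protein, read 8.79, 9.42 and 9.10 against 2.36 to 2.39, and was also highest in Ly6D+ CLP (7.19) among the cells without a transplant.

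A further 22 of the 77 genes were at the floor in all 4 groups without a transplant as well, so that Pax5KO cells were the sole group above the floor. The corresponding number among the 82 falls was 3, namely Ciita, Il5ra and Aldh3b1, none of which held in every alternative (Il5ra was lost at 0.0711 to 0.0901 when any Pax5KO array was left out). Many of the 22 rises did not hold in every alternative, and their means in Pax5KO cells went down to 2.80. Slc5a9, a sodium-coupled sugar transporter, read 7.59, 7.38 and 7.55 in Pax5KO cells and 2.33 to 2.34 in WT engrafted cells, a rise of at least 5.17 (SE 0.08, limma adjusted p = 1.36e-08), and each of its 4 probe sets was called higher. Its means in the cells without a transplant were 2.33 to 2.50. Pcdh11x, a protocadherin, read 6.67, 6.62 and 7.20 against 2.32 on each WT array, with both probe sets called. ccdc198 read 8.23, 9.64 and 10.49 against 2.33 to 2.36. Sema6d, a semaphorin, read 6.37, 6.40 and 5.59 against 2.32, although 1 of its 4 probe sets was called. With a floor drawn at 1 instead of 0.5 above the lowest value, 36 of 125 such genes were at the floor everywhere else, and at 0.1 it was 6 of 34.

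**Figure D2:**
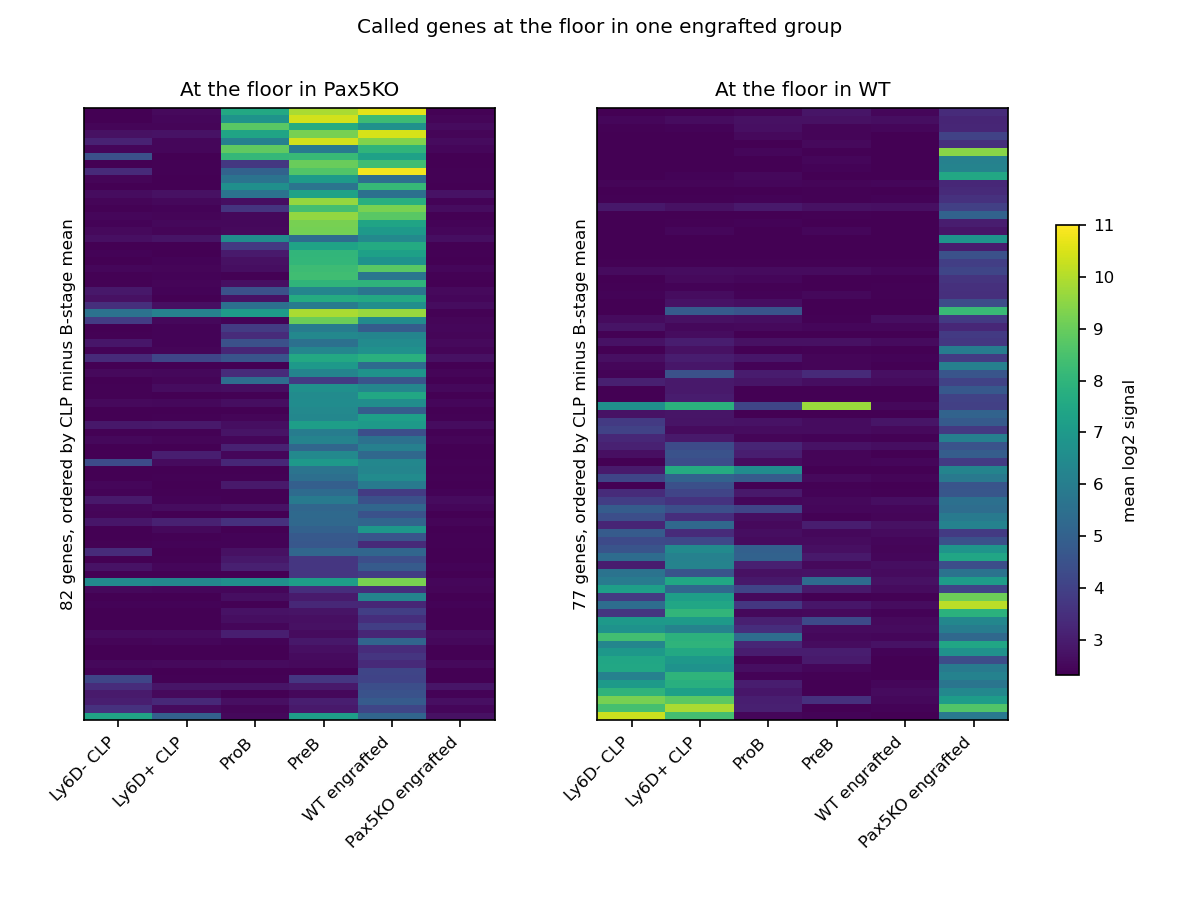
Mean log2 signal (colour) in 6 groups (columns) of the 82 called genes at the floor in Pax5KO cells (left) and the 77 at the floor in WT cells (right), 1 row per gene, ordered by the CLP mean minus the ProB and PreB mean. The left block is bright mostly in PreB and WT engrafted cells, with 77 genes above the floor in PreB. The right block is bright in CLP and Pax5KO engrafted cells, with 22 genes above the floor in Pax5KO cells alone, some of them dim there.

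Promoters of these genes were read for letters that Pax5 and its partner EBF1 are known to bind, because the genes changed together. RefSeq (GRCm38.p6) gave the 250 bases before the start of 14452 of the measured genes. The Pax5 core letters GCGTGAC, on either strand, were in 2.84% of these promoters, in 3.01% of those of genes that fell, in 3.41% of those of genes that rose, and in 4 of 65 (6.15%) for genes at the floor in Pax5KO cells. The EBF1 letters CCCNNGGG were in 14.6% of all, 16.9% of the falls, 15.9% of the rises and 18.5% of the 65. For the 59 genes at the floor in WT cells the shares were 5.08% (3 promoters) and 11.9% (7). A pair of the 4 promoters with the Pax5 core letters is shown, with matches in capitals, beside that of Fcmr, which had neither. Neurl3, a ubiquitin ligase, lies on the minus strand at chr1:36273426-36273675 (6.50 in WT and 2.43 in Pax5KO cells). Ltk, a receptor tyrosine kinase, lies on the minus strand at chr2:119758526-119758775 (5.90 and 2.35) and held both motifs. Fcmr lies on the plus strand at chr1:130865527-130865776 (10.84 and 2.37). No match means that these letters are not in this window.
Neurl3: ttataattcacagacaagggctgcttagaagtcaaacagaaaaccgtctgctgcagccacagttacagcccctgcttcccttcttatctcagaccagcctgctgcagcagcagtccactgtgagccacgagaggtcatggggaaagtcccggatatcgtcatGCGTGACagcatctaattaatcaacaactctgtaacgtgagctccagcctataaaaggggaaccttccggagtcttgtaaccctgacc
Ltk: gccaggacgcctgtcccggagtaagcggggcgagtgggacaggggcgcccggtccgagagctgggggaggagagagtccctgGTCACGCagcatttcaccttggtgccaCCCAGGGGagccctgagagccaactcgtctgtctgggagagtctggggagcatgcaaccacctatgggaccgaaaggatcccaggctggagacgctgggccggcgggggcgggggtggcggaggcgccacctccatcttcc
Fcmr: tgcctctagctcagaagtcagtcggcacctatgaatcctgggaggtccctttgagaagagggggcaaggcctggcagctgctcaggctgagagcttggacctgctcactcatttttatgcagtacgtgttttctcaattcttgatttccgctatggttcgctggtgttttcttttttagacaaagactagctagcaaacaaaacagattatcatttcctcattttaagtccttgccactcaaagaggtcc

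Genes of the B cell antigen receptor complex and its co-receptors mostly fell where they were called. Of 29 measured surface receptors, 12 fell and 2 rose (48.3% called), and 9 of the falls held. Siglecg, an inhibitory lectin that restrains the receptor, read 10.57, 10.63 and 10.31 in WT cells and 3.40, 3.76 and 4.36 in Pax5KO cells (a fall of 6.66, SE 0.27, limma adjusted p = 3.09e-06). Cd22, a second inhibitory lectin, fell by 4.43 (SE 0.39), and Btla, an inhibitory receptor of the immunoglobulin family, fell by 6.75 (SE 0.83). Fcgr2b, the inhibitory receptor for IgG, read 9.67 to 9.80 in WT and 3.35 to 4.68 in Pax5KO cells. Pirb, an inhibitory receptor for MHC class I, was dim in WT cells (4.08) and at the floor in Pax5KO cells. Ms4a1 (CD20), a surface protein of mature B cells, fell by 9.21 (SE 0.37). Of 6 chains of the pre-B receptor, 4 fell. Igll1 and Vpreb1 of the surrogate light chain were not called (limma adjusted p = 0.251 and 0.239). Igll1 read 12.59 to 13.12 in Pax5KO and 11.41 to 12.75 in WT cells, and Vpreb1 read 12.94 to 13.21 and 11.90 to 12.13. The signalling chain Cd79a read 8.13 to 8.84 in WT and 5.36 to 5.48 in Pax5KO cells, and Vpreb3, which assists receptor assembly, fell by 3.47 (SE 0.24). Ighm fell by 1.95 (SE 0.25, limma adjusted p = 0.0022) in its brightest of 11 probe sets and by 0.35 (limma adjusted p = 0.251) in their mean. Cd93, a marker of immature B cells, rose by 2.14 (limma adjusted p = 0.0089; 0.127 in the fit of 6 arrays).

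Genes of the pre-B stage gave the most negative median of the lists named here. Of 19 genes that mark the small pre-B stage and receptor editing, 11 fell and 1 rose, the median difference was -2.87, and 8 of the falls held. Cd2, an adhesion molecule that appears at that stage, read 9.28, 9.13 and 7.93 in WT cells and 2.32 to 2.39 in Pax5KO cells, and averaged 9.59 in PreB but 2.43 to 2.50 in the other cells without a transplant. Cd72, an inhibitory co-receptor, read 12.33, 12.54 and 11.71 in WT cells and 2.78, 3.02 and 3.26 in Pax5KO cells, below its Ly6D- CLP mean of 8.60. Fcrla, an intracellular Fc receptor relative, fell by 9.61 (SE 0.28, limma adjusted p = 4.3e-07), and its CLP means were at the floor. Among cells without a transplant Cd72 was thus present before the B stages and Cd2 and Fcrla were not, while all of them read close to the floor in Pax5KO cells. Btg2, an antiproliferative factor, fell by 3.02 (SE 0.33, limma adjusted p = 0.000931). The factors Irf4 and Bach2 fell by 4.14 and 3.42 (limma adjusted p = 0.00713 and 0.00242), with Irf4 lost under the Xist term (0.0908) and Bach2 in the fit of 6 arrays (0.0629).

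Of 17 genes of MHC class II and its antigen loading, 8 fell and none rose. Cd74, the invariant chain, read 10.76, 10.95 and 9.94 in WT cells and 3.78, 4.27 and 6.51 in Pax5KO cells. H2-Ab1 read 10.03 to 10.77 and 5.02 to 7.38. In both genes Pax5KO array 3 was the highest of its group. H2-Ob, the modulator of peptide loading in B cells, fell by 2.89 (SE 0.30, limma adjusted p = 0.000724), and Cd40, the receptor for T cell help, fell by 4.32 (SE 0.33, limma adjusted p = 0.000122). Ciita, the class II transactivator that switches these genes on, read 4.01, 3.59 and 4.81 in WT cells and 2.32 to 2.33 in Pax5KO cells, and was at the floor in the 4 other groups. Fitted on 6 arrays alone, the calls of Cd74 (limma adjusted p = 0.0501), H2-Ab1 (0.0589) and Ciita (0.0843) ended, while those of H2-Ob and Cd40 held. Of 10 SLAM family receptors, which adjust lymphocyte signals, Slamf6 fell by 3.53 (SE 0.42), Slamf7 by 4.04 (SE 0.40) and Slamf9 by 4.31 (SE 0.33). None was called higher, although all Pax5KO arrays lay above all WT arrays for 3 of the 10 and below them for 3.

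Of 36 factors of B lineage specification, 8 fell and 2 rose. Spib, an Ets factor of B and plasmacytoid dendritic cells, read 12.79, 13.10 and 12.59 in WT and 7.71, 7.58 and 8.37 in Pax5KO cells (a fall of 4.94, SE 0.35, limma adjusted p = 7.75e-05). Id3, an inhibitor of E proteins, fell by 3.71 (SE 0.26, limma adjusted p = 7.92e-05), and Irf8 fell by 1.67 (SE 0.18, limma adjusted p = 0.000818). Ebf1, which with E proteins sets up the B programme, differed by -1.14 (SE 0.41, limma adjusted p = 0.195), with 10.90 to 11.09 in Pax5KO and 11.71 to 12.41 in WT cells. In the Ikaros family, Ikzf3 alone of 5 members was called (2 with the replicate number as a block), with 8.05 to 8.43 in WT and 2.36 to 2.47 in Pax5KO cells. Among 16 Kruppel-like factors 2 fell and 1 rose (18.8% called), and the rise did not hold in every alternative. Klf13 fell by 1.39 (SE 0.19, limma adjusted p = 0.00287) beside the larger fall of Klf2. In 23 Ets factors Etv6, a repressor needed by blood stem cells, rose by 2.75 (SE 0.25, limma adjusted p = 0.000321) while Spib fell. Lmo2, a bridging factor of progenitor complexes, read 10.67, 10.68 and 10.30 in Pax5KO and 7.44 to 8.02 in WT cells. With limma no member was called among 33 Hox genes, 29 of which were at the floor in both groups, among 8 GATA factors and cofactors or among 8 Egr and Nr4a factors. At an unadjusted p under 0.05 there were 0, 1 and 2 genes in these lists, and with the replicate number as a block 1 Egr or Nr4a factor was called lower.

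Signalling genes below the receptor followed no single direction. Of 30 adaptors and kinases of the B cell receptor, 4 fell and 2 rose, and 2 were called in all without Pax5KO array 1. Syk, the first kinase of the pathway, read 12.52 to 13.04 in WT and 10.77 to 11.28 in Pax5KO cells, a fall of 1.74 (SE 0.22, limma adjusted p = 0.00206). Pik3ap1, the adaptor BCAP that brings in PI3 kinase, fell by 3.29 (SE 0.36, limma adjusted p = 0.000997), and Pik3r6, a regulatory subunit of PI3 kinase gamma, rose by 5.23 (SE 0.34, limma adjusted p = 4.69e-05), from 2.32 to 3.30 in WT to 7.55 to 8.35 in Pax5KO cells. Rasgrp1, which activates Ras on diacylglycerol, read 9.17, 9.77 and 8.83 in WT cells and was at the floor in Pax5KO cells (2.39, 2.71 and 2.76), though 1 of its 4 probe sets was called. Of the other Ras regulators, Rasal3 and Rasa4, which inactivate Ras, rose by 1.57 (SE 0.15) and 2.51 (SE 0.25). Prkch, a protein kinase C that diacylglycerol activates, read 8.08 to 8.51 against 2.32 to 3.80. In the NF-kB family 4 of 11 genes fell and none rose. The call of Nfkbia, the inhibitor IkBα, held (a fall of 1.83, SE 0.22, limma adjusted p = 0.0017), and those of Nfkbid (0.0502), Bcl3 (0.0733) and Relb (0.0539) ended in the fit of 6 arrays, with the limma adjusted p in parentheses. Relb was also lost without Pax5KO array 1 (0.0506), Pax5KO array 2 (0.0667), WT array 2 (0.0644) or WT array 3 (0.0559).

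Polm and Poll are related polymerases that fill gaps during the joining of broken DNA ends, Polm mainly at light chain and Poll at heavy chain joints. Polm read 8.00, 7.90 and 6.66 in WT cells and 2.33 to 2.34 in Pax5KO cells, a fall of at least 5.18 (SE 0.30, limma adjusted p = 2.36e-05). Poll read 7.10, 7.08 and 6.90 in Pax5KO cells and 2.45, 3.85 and 3.91 in WT cells, a rise of 3.62 (SE 0.41, limma adjusted p = 0.00112). The cells without a transplant split likewise: Polm was at the floor in both CLP groups and ProB and at 6.52 in PreB, and Poll ran from 7.27 in Ly6D+ CLP to 2.80 in PreB. Of the other 16 recombination and end joining genes, Dntt alone was called (2.89 higher, limma adjusted p = 0.00625; 0.0714 in the fit of 6 arrays). Each polymerase was read by 1 probe set.

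The class I myosins, single-headed motors at the membrane, gave a similar pair. Myo1e was at the floor in Pax5KO cells and read 4.80 to 5.42 in WT cells, and Myo1f read 6.96 to 7.39 in Pax5KO and 2.70 to 3.36 in WT cells. Among 18 histone deacetylases and sirtuins 3 rose and 3 fell: Hdac5 fell by 3.07 (SE 0.38, limma adjusted p = 0.00201), and Sirt3, the main mitochondrial deacetylase, rose by 2.94 (SE 0.26, limma adjusted p = 0.00026). When WT array 1 was left out, 3 of the 6 were called. Adhesion receptors coupled to G proteins held a further pair, with Adgre5 (CD97) at 9.88 to 10.19 in WT and 4.49 to 6.06 in Pax5KO cells, and Adgrg3 at 3.12 to 5.58 and 11.50 to 11.80. The orphan receptors Gpr155 and Gpr25 changed by -6.59 (SE 0.53) and by at least 5.48 (SE 0.39), the only calls of that list, and 40 of the 59 measured orphan receptors were at the floor in both groups. Of 18 Ras exchange factors and GAPs, 17 MS4A genes and 76 chaperones, each family also had at least 1 firm call in each direction, such as the chaperones Dnajc6 (4.87 higher, SE 0.41) and Dnajc7 (a fall of 2.40, SE 0.22) and the MS4A genes Ms4a6b (3.13 higher, SE 0.37) and Ms4a1. Against 5.94% of all genes called, the share was 10.4% of 48 myosins, 3.39% of the orphan receptors and 6.58% of the chaperones. In the kinases of splicing factors, the fall of Srpk3 stood beside rises of Srpk1 by 1.42 (limma adjusted p = 0.00851) and Srpk2 by 2.02 (0.00695). Both rises were lost with the Xist term (0.0513 and 0.0987).

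**Figure D3:**
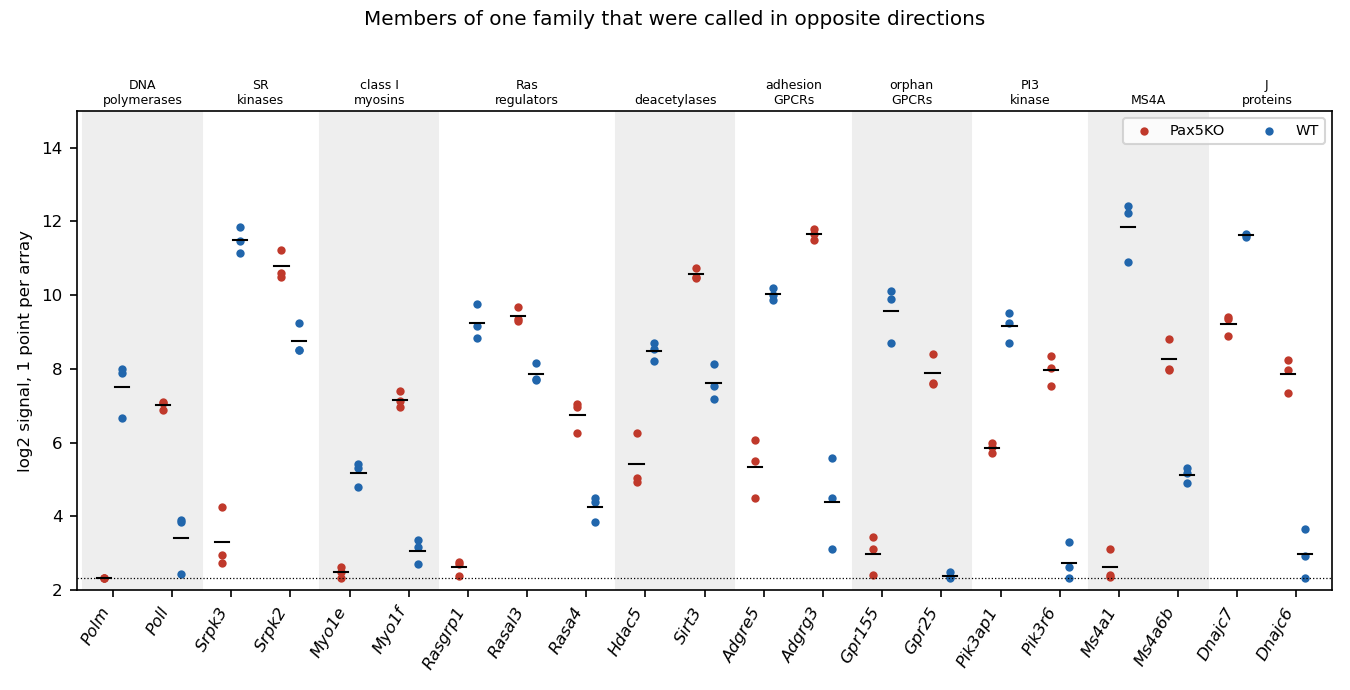
Log2 signal on each array (points; black bars are group means, n = 3) of genes grouped by family, Pax5KO in red and WT in blue, with the floor as a dotted line. In each shaded or unshaded block the first gene lies higher in WT cells and the last higher in Pax5KO cells, for example Polm at 6.66 to 8.00 in WT and Poll at 6.90 to 7.10 in Pax5KO cells.

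Receptors that mark earlier or other lymphoid cells were among the rises. The 4 measured CLP markers averaged 8.55 to 9.88 over the Pax5KO arrays and 6.81 to 7.63 over the WT arrays. Only 2 of them, Flt3 and Kit, were called higher. Ly6d went the other way without a call, at 9.39 to 9.93 in Pax5KO and 10.14 to 11.22 in WT cells (limma adjusted p = 0.31). The part of these markers in those rises was not tested. Cd27, a TNF receptor family member of progenitors and activated lymphocytes, read 6.93, 6.93 and 6.10 in Pax5KO and 2.32 to 2.95 in WT cells (a rise of 3.99, SE 0.28, limma adjusted p = 7.58e-05). Il18rap, the accessory chain of the interleukin-18 receptor, read 9.25, 9.84 and 9.24 against 4.59, 3.42 and 3.47, and rose with the main chain Il18r1 (at least 4.39, SE 0.50). Of 40 interleukin receptor genes 6 rose and 1 fell (17.5% called), and 4 were called without Pax5KO array 1 or 2. With the replicate number as a block 2 fell. Tnfsf11, the cytokine RANKL, averaged 7.45 in Pax5KO cells and was at the floor in WT cells. Cd247, the zeta chain of the T cell receptor that NK cells also use, rose by 2.88 (SE 0.30, limma adjusted p = 0.000706), while the T cell receptor chains Cd3d, Cd3e and Cd3g stayed at the floor. Notch1 read 11.92, 11.69 and 11.59 in Pax5KO and 9.05 to 9.27 in WT cells (a rise of 2.58, SE 0.19, limma adjusted p = 8.54e-05). Dtx1, a gene that Notch activates in other lymphocytes, went the opposite way, from 6.72 to 7.30 in WT to 2.32 to 2.78 in Pax5KO cells. Of the other receptors for lipids and nucleotides, Lpar6 rose by 1.76 (SE 0.26) and P2rx3, an ATP-gated channel, fell by 3.26 (SE 0.51).

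Genes of stem cells and multipotent progenitors gave 5 rises and no fall among 28 measured (17.9% called), with a median of 0.42. Of the rises 4 held, and 8 genes rose with the replicate number as a block. Flt3, a cytokine receptor of early lymphoid progenitors, read 9.67, 9.98 and 8.74 in Pax5KO and 3.39 to 3.66 in WT cells (a rise of 5.90, SE 0.33, limma adjusted p = 2.23e-05). Its Pax5KO values lay between the means of the CLP groups (12.12 and 12.39) and of ProB and PreB cells (5.58 and 5.78). Egfl7, a secreted factor, read 10.47, 10.29 and 9.82 against 5.24 to 5.80, close to its CLP means of 10.25 and 10.63. Kit, the stem cell factor receptor, rose by 3.04 (SE 0.65, limma adjusted p = 0.0279), and was lost at 0.0847 to 0.11 when WT array 1 or 3, or Pax5KO array 1 or 2, was left out. Of 20 NK and innate lymphoid genes 4 rose and none fell. Klrd1 (CD94), a subunit of NK receptors, read 5.99, 6.55 and 7.08 against 2.66 to 3.84. Id2, an E protein inhibitor of innate lymphoid cells, rose by 1.85 (limma adjusted p = 0.0221) in its brightest probe set and by 0.66 (0.145) in the mean of 3. The other 2 rises of that list were Il18r1 and Fcer1g (2.52 higher, limma adjusted p = 0.00487, not held in every alternative), and the NK genes Klrk1, Ncr1 and Prf1 were at the floor in both groups.

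Further receptors and their regulators rose, several of them from the floor. Ffar2, which senses short-chain fatty acids such as acetate, read 9.79, 9.91 and 10.60 in Pax5KO cells and 2.59 to 2.63 in WT cells, a rise of at least 7.50 (SE 0.62, limma adjusted p = 0.00019). No group without a transplant had a mean at that level, the nearest being Ly6D+ CLP at 7.46. Rgs8, which shortens G protein signals, read 7.63, 7.02 and 7.76 against 2.61 to 2.82. Cish, a SOCS protein induced by cytokines, read 5.91, 5.96 and 6.76 against 2.67 to 3.64. In the semaphorin and plexin list, Plxnb2 rose by 1.81 (SE 0.18, limma adjusted p = 0.000598) and Plxdc1 fell by 3.67 (SE 0.48, limma adjusted p = 0.00245); 3 of its 5 calls remained without Pax5KO array 2 or WT array 1. Of 25 tetraspanins 5 rose and none fell, but none held in every alternative and 3 were called when array 1 or 2 of either group was left out. The interferon-induced Ifitm3 read 10.26, 10.10 and 10.04 against 5.06, 6.36 and 5.18. Of all 27 interferon response genes 3 rose and 1 fell (14.8% called, against 10.3% of genes above the floor in a group). Without Pax5KO array 1, 2 in all were called. Cst7, an inhibitor of cysteine proteases in cytotoxic cells, rose by 3.47 (SE 0.23, limma adjusted p = 5.68e-05), and St3gal2, a sialyltransferase, rose by 2.05 (SE 0.25, limma adjusted p = 0.00181).

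The GIMAP genes encode GTPases of lymphocyte survival and lie side by side in the genome. Of 8 measured, 4 rose and none fell, and the median difference was 2.0 against 0.09 over all genes above the floor. Gimap7 read 10.69, 11.04 and 11.20 in Pax5KO and 5.75, 6.01 and 4.79 in WT cells (a rise of 5.46, SE 0.34, limma adjusted p = 3.78e-05). Gimap9 rose by 2.15 (SE 0.17, limma adjusted p = 0.00014) and Gimap6 by 2.70 (SE 0.45, limma adjusted p = 0.0089; 0.123 in the fit of 6 arrays). Gimap4 rose by 4.56 (limma adjusted p = 0.0154), and was lost at 0.0511 to 0.0523 when any Pax5KO array or WT array 3 was left out. The uncalled members Gimap1, Gimap5 and Gimap8 differed by 1.43, 1.18 and 1.85 (Gimap1 with the replicate number as a block, limma adjusted p = 0.0432), and Gimap3, dim in both groups, by 0.03. Without WT array 3, or with equal array medians or quantile normalization, 1 of the 8 differences was below 0.

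**Figure D4:**
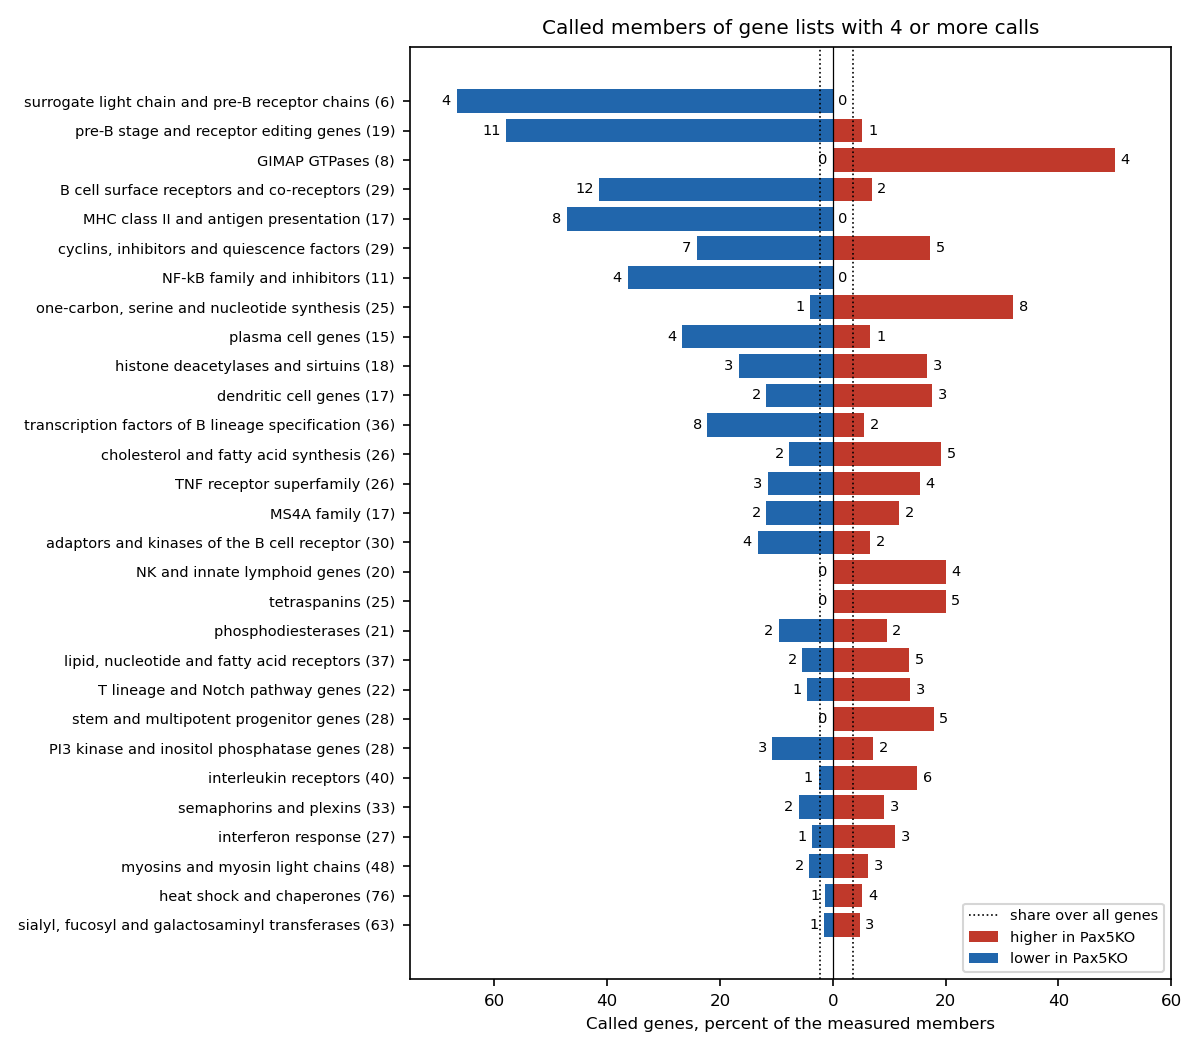
Called genes as a percent of the measured members (number in parentheses) of each gene list shown, all with 4 or more calls, lower in Pax5KO to the left (blue) and higher to the right (red), with the number called at the end of each bar; dotted lines are the shares over all genes, 3.64% higher and 2.29% lower. The lists of pre-B receptor chains, pre-B stage genes and MHC class II run to the left (4, 11 and 8 genes) and those of GIMAP GTPases and nucleotide synthesis to the right (4 and 8 genes), while cyclins and deacetylases have calls on both sides.

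Of 25 genes of one-carbon, serine and nucleotide synthesis 8 rose and 1 fell, and the median difference was 0.99. Impdh1, the entry enzyme of guanine nucleotide synthesis, read 10.07, 9.85 and 9.77 in Pax5KO and 6.31, 6.22 and 7.20 in WT cells (a rise of 3.32, SE 0.28, limma adjusted p = 0.000205). Atic, which closes the purine ring, rose by 1.77 (SE 0.19, limma adjusted p = 0.000791). The purine enzymes Paics, Gart and Adsl rose by 0.80, 1.22 and 1.03 at limma adjusted p of 0.0167, 0.0379 and 0.0335, and Shmt2 by 1.74 (0.00885; 0.0962 in the fit of 6 arrays and 0.127 with the Xist term). The fall was that of Rrm2, a subunit of ribonucleotide reductase (1.05 lower, limma adjusted p = 0.0404), which was lost at 0.062 to 0.145 when any 1 of the 6 arrays was left out. The smaller rises depended on single arrays too. Without WT array 1, 3 of the 9 genes were called. Leaving out 1 array, Paics stayed called without Pax5KO array 3 or WT array 2 (0.0544 to 0.0721 otherwise), Gart without WT array 2 (0.0529 to 0.132 otherwise), and Adsl without WT array 3 (0.0719 to 0.108 otherwise). Gart was also lost with the replicate number as a block (0.0805). Pdk1, which holds pyruvate back from the mitochondria, was tight within groups, at 11.54, 11.60 and 11.47 in Pax5KO and 8.70, 8.81 and 8.33 in WT cells (a rise of 2.92, SE 0.11, limma adjusted p = 1.91e-06). Slc1a5, the main glutamine importer, fell by 2.57 (SE 0.32, limma adjusted p = 0.00184), and both of its probe sets were called. In cholesterol and fatty acid synthesis 5 of 26 genes rose and 2 fell, or 4 in all without Pax5KO array 1 or WT array 1. Scd1, which makes monounsaturated fatty acids, fell to the floor from 9.64 to 11.37 in WT cells, whereas Fads2, which makes polyunsaturated ones, rose by 2.78 (SE 0.42, limma adjusted p = 0.00525; 0.0510 without both arrays numbered 3). Of 80 subunits of oxidative phosphorylation 1 was called, Ndufb1, which fell by 1.98 (SE 0.32, limma adjusted p = 0.00752). Of 46 ribosomal proteins limma called none, and 2 had an unadjusted p under 0.05 (1 called higher with the replicate number as a block).

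All 36 measured genes of mitosis and the spindle read lower in Pax5KO cells (median -0.71), as did 4693 of the 10490 genes above the floor in a group. For 22 of the 36 all Pax5KO arrays lay below all WT arrays, against 7.65% of all genes. Of 35 DNA replication genes 29 read higher, with a median of 0.40. Of these 35, 12 had all Pax5KO arrays above all WT arrays, against 11.9% of all genes, and none below. Few were called: 2 mitotic genes (5.56%) and 2 replication genes (5.71%), near the 5.94% of all genes. In the replication list Orc1, of the origin recognition complex, and Mcm6, of the replicative helicase, rose by 1.41 and 0.76 (limma adjusted p = 0.0227 and 0.023), and neither was called without Pax5KO array 1, Pax5KO array 2 or WT array 1 (0.0634 to 0.0929). In the mitotic list Ccna2 (cyclin A) fell by 1.16 (limma adjusted p = 0.0382), and stayed called when Pax5KO array 2 was left out (0.0727 to 0.137 without the others). The other mitotic call was Cdc25b, a phosphatase that starts mitosis, at 10.30, 10.40 and 10.23 in WT and 6.97, 6.84 and 6.02 in Pax5KO cells (a fall of 3.70, SE 0.26, limma adjusted p = 7.24e-05). Leaving out 1 array, 34 to 36 of the mitotic differences stayed below 0, and with equal array medians or quantile normalization 36 did. The replication genes above 0 numbered 27 to 29 with 1 array left out, 26 with quantile normalization and 25 with the Xist term. Among 25 histone genes, 14 were above the floor in a group, and 13 of these 14 read lower in Pax5KO cells (median -1.1). All Pax5KO arrays lay below all WT arrays for 8 of the 25 and above them for none. The linker histone H1f2 and the variant histone H3f3b were called: the first fell by 2.58 (SE 0.57, limma adjusted p = 0.0315) and the second fell by 2.14 (SE 0.42, limma adjusted p = 0.0196). H3f3b read 7.44, 7.48 and 7.20 in Pax5KO and 9.26, 9.77 and 9.52 in WT cells. Neither was called when any 1 of the 6 arrays was left out (0.0594 to 0.116 for H1f2 and 0.052 to 0.0729 for H3f3b) or with the Xist term (0.229 and 0.145), and H1f2 was also lost with the replicate number as a block (0.069).

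Regulators of the cell cycle and of quiescence gave 5 rises and 7 falls among 29 genes, of which 6 were called without WT array 1. Rb1, the retinoblastoma protein, read 10.44, 10.93 and 9.64 in WT and 6.99 to 7.56 in Pax5KO cells (a fall of 2.97, SE 0.32, limma adjusted p = 0.000931). E2f2, a factor that Rb1 restrains, fell by 3.57 (SE 0.25, limma adjusted p = 7.75e-05), with both probe sets called. Btg1, which slows division and is abundant in resting B cells, read 13.27 to 13.66 in WT and 10.50 to 10.83 in Pax5KO cells, and each of its 3 probe sets was called lower. Cdkn1b, the inhibitor p27, fell by 1.37 (SE 0.18, limma adjusted p = 0.00235). Cdk6, a G1 kinase, rose by 2.79 (SE 0.32, limma adjusted p = 0.00133; 0.0524 in the fit of 6 arrays), from 9.81 to 10.89 in WT to 12.52 to 13.58 in Pax5KO cells. In the BCL2 family a pair of opposed members fell together. Bcl2l1, which protects cells from death, fell by 2.91 (SE 0.25, limma adjusted p = 0.000214), and Bmf, which promotes it, fell by 3.59 (SE 0.35, limma adjusted p = 0.000468). Of 8 caspases limma called none, and 1 had an unadjusted p under 0.05 (2 called higher with the replicate number as a block).

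**Figure D5:**
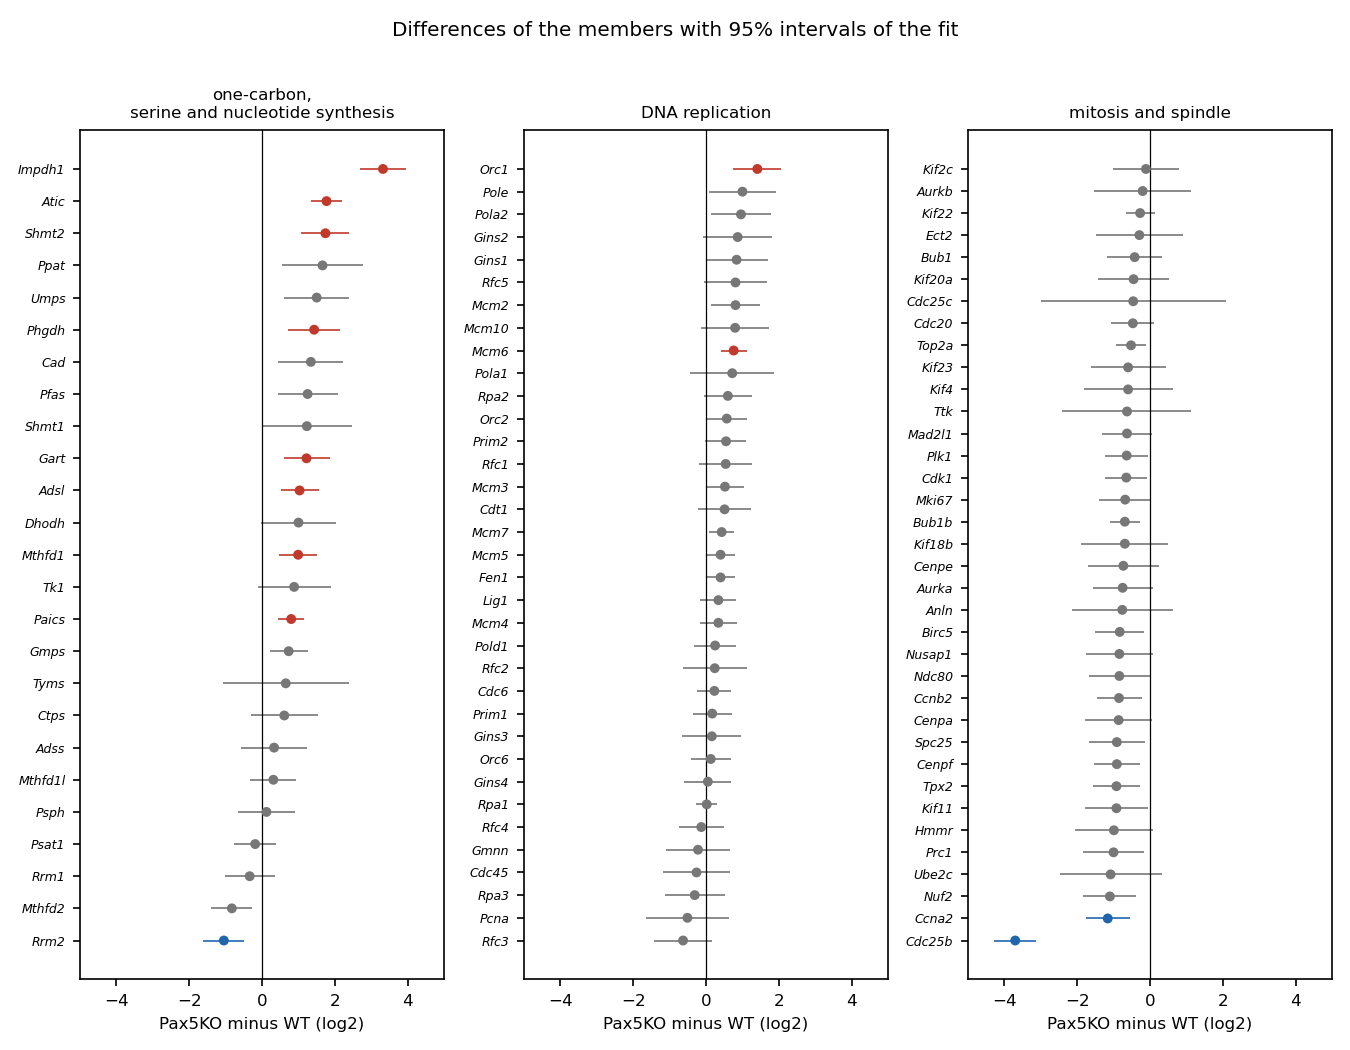
Difference Pax5KO minus WT in log2 units (points) with the 95% interval of the fit (lines) for each measured gene of 25 in nucleotide synthesis, 35 in DNA replication and 36 in mitosis; red and blue mark genes called higher and lower, grey those not called. All 36 mitotic genes lie left of 0, and 29 of the 35 replication genes lie right of it.

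Among chromatin genes, Smarca4, the motor of the SWI/SNF complex, read 13.03 to 13.47 in WT and 11.63 to 11.96 in Pax5KO cells, a fall of 1.49 (SE 0.14, limma adjusted p = 0.000334) in which both probe sets were called. Cbx2, a Polycomb subunit, rose by 2.18 (SE 0.35, limma adjusted p = 0.00724), and Dnmt3b, a de novo DNA methyltransferase, rose by 2.35 (SE 0.31, limma adjusted p = 0.00277). Of 27 Polycomb and SWI/SNF subunits 1 rose and 2 fell (11.1% called), and of 11 genes of DNA methylation 1 rose (9.09%). Both shares were near those of all genes (5.94%) and of genes above the floor in a group (10.3%). Igf2bp3, an RNA-binding protein of fetal blood progenitors, read 9.18, 9.57 and 8.67 in Pax5KO and 6.17 to 6.71 in WT cells, with 4 of its 6 probe sets called higher. It was the one gene called of 15 that mark fetal rather than adult progenitors (6.67%), and 9 of the 15 were at the floor in both groups. The actin-binding genes Lcp1 and Coro2a rose by 1.40 (SE 0.17) and 2.88 (SE 0.29), and Mylk, the kinase of myosin light chains, rose by 4.58 (SE 0.46, limma adjusted p = 0.000611) beside the light chain Myl10. No member was called among 20 chemokine receptors, 26 C-type lectins, 21 ephrins and Eph receptors or 8 Ly6 genes, of which 10, 20, 16 and 5 were at the floor in both groups. At an unadjusted p under 0.05 limma found 7 of the chemokine receptors and 1 gene of each other list.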

How the data were processed

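RNA was hybridised to Affymetrix arrays of the mouse genome. The authors deposited log2 values per probe set. The submitters' processing notes name RMA, GCRMA and limma without roles, and versions are not given in the sources used here. The deposited values have a floor at 2.32, as the files show. RMA and GCRMA, as usually run, bring all arrays to one distribution, so a change in total RNA per cell cannot be seen. The scanner files were not used here, and the series holds 14 arrays.

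Gene names came from the platform annotation. Of 45101 probe sets, 34945 had 1 gene symbol, 932 had several and 9160 had none. For each of 18193 genes the brightest probe set was kept, by its mean over the 14 arrays. limma 3.58.1 (R 4.3.3) fitted 6 group means to all 14 arrays, which share 1 estimate of the spread, with eBayes and Benjamini-Hochberg adjustment over all genes. A gene was called at an adjusted p under 0.05. The steps were tested on simulated data: for this comparison over 18193 genes, 51% of genes changed by 2 log2 units and 82% of those changed by 4 were called. Changes were set only in genes with a mean more than 2 log2 units above the floor, and 8 unchanged genes were called. Noise was drawn separately for each gene and array. The shares therefore do not cover dimmer genes or deviations that arrays have in common. If replicate arrays were not from separate animals, p-values measure technical spread.

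The alternatives changed the probe set rule, the arrays fitted, the filter on dim genes, the array scaling, the weights, and terms for Xist and for the replicate number, and left out each array. Arrays of the same number deviated together from their group means (correlations 0.13, 0.303 and 0.543), so the numbers were taken to pair the arrays. However, Pax5KO array 1 correlated more with WT array 2 (0.39), and WT array 1 more with Pax5KO array 2 (0.187). The correlations therefore do not settle how arrays 1 and 2 pair. That pairing comes from the data and not from the labels.

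The members and gene lists were chosen with earlier results of these data known, and list patterns were edited after the matched names were seen. Named genes are the 15 largest rises and falls, the 10 brightest genes at the floor in the other group, and in each list up to 5 called genes in each direction and up to 2 uncalled ones. All members of lists of up to 10 genes count too, as do Pax5, Xist and some lineage and Y-linked genes. Enpep, Mn1, Ciita, Aldh3b1, Cpa3, Neurl3, Ltk, Fcgr2b, Pirb, H2-Ob, Paics, Adsl, Cdkn1b, Lyz2, Bst2, Jchain, Sdc1 and the lineage markers at the floor were named after their values were seen. Some results that were computed are not reported here.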

Additional observations from a re-analysis of the deposited data

Results flagged for a closer look

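The probe sets without exactly 1 gene symbol were not used in any comparison. A separate limma fit took all probe sets except the controls, those with 1 symbol included, and was adjusted over all of them. In it 145 of the 10092 (1.44%) differed between Pax5KO and WT engrafted cells, 64 higher and 81 lower, and 119 of them had no symbol. The probe set 1450570_a_at, which has no single symbol, read 11.37, 11.54 and 11.50 on the WT arrays and 3.91, 3.43 and 3.58 on the Pax5KO arrays (limma adjusted p = 1.32e-07). The largest fall was that of 1428719_at, from 11.85, 11.48 and 10.41 to 2.32, 2.32 and 2.77.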

How the results depend on the processing

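The count of 1080 called genes (663 higher and 417 lower) stayed within 1.5 times under 8 kinds of alternative: the mean of a gene's probe sets, both filters on dim genes, equal array medians, quantile normalization, an intensity trend, the replicate block and leaving out both arrays numbered 3. It fell to 697 (400 higher) with the 6 engrafted arrays alone and to 559 (322 higher and 237 lower) at an adjusted p under 0.01, and rose to 3065 (1881 higher and 1184 lower) with array weights, which among the 6 engrafted arrays were lowest for both numbered 3 (0.87 and 0.75). With the Xist term 339 genes were higher, and the share of higher calls went from 61.4% to 39.1%. Leaving out 1 array gave 676 to 1034 called genes, 394 to 648 higher and 282 to 466 lower. Of the 1080, 592 were called with each single array left out. With the floor drawn at 0.1 instead of 0.5 above the lowest value, 73 instead of 159 called genes had 1 group at the floor. With the replicate number as a block, which pairs the arrays, 1163 genes were called (946 of them shared). Among the called and uncalled genes named in the report the block ended the calls of Gart and H1f2, added that of Gimap1 and changed no other call. The markers Cd79b, Igll1, Ly6d, Lyz2, Bst2, Jchain and Sdc1 are left out of that statement. The causes of these changes were not tested. Signal near the floor limits what can be measured: 7703 genes were dim in both groups.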
